A study of Caenorhabditis elegans with 45 samples.

Results

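The transcriptomes of whole worms of a pair of conditionally sterile *C. elegans* strains were compared on day 3 of adulthood, with 6 libraries of the *fem-3(q20)* strain (FEM) against 5 libraries of a double mutant of *gon-2(q388)* and *gem-1(bc364)* (GEM). All libraries labelled day 3 were taken, 11 of the 45 libraries that follow the strains from day 1 to day 10. They were harvested at 89 h post feeding (3 FEM and 3 GEM libraries) and at 97 h (3 FEM and 2 GEM libraries), and the hour was kept as a covariate. Animals of both strains were grown from the first larval stage at the restrictive temperature of 25 °C on HT115 bacteria carrying the empty vector L4440, and each sample was a pool of whole worms. Neither strain is wild type, and no wild-type library is part of the comparison. Sterility is complete in FEM but not in GEM, in which visibly fertile worms were removed before harvest. Replicate numbers below only name the libraries of a strain and hour.

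In *C. elegans* hermaphrodites the germline first makes sperm and then switches to oocytes, and the gene *fem-3* holds germ cells in the male fate. The gain-of-function allele *q20* keeps the germline in sperm production within an otherwise hermaphrodite somatic gonad. The cation channel gene *gon-2* is needed for the divisions of the gonad precursor cells, the solute carrier gene *gem-1* acts beside it, and GEM animals are left with a delayed and degenerate gonad. Germ cells hold a large share of the RNA of a normal adult. In whole worms, fewer cells of a type and less RNA per cell cannot be told apart.

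The libraries held an estimated 14683699 to 29892483 reads assigned to genes (median 17742210), and 16827 to 19715 genes were detected in each. Libraries of the same strain and hour lay at a distance (1 minus the Pearson correlation over all genes) of 0.0121 to 0.0164 in FEM and 0.0105 to 0.0224 in GEM, and libraries of different strains at 0.0797 to 0.112. A few libraries stood apart within their strain. GEM 89 h replicate 3 gave the highest GEM value for 79.4% of the genes called higher in GEM, and it had the highest oocyte and eggshell levels and the lowest intestine level of the GEM libraries. FEM 97 h replicate 2 had the most genes detected, and FEM 89 h replicate 2 had the lowest levels of sperm and yolk protein genes in FEM. Some of the results below, but not all, are therefore also given without GEM 89 h replicate 3 and FEM 97 h replicate 2.

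The genes whose alleles define the strains were read first. All levels below are log2(normalized count + 1), all differences are FEM minus GEM on that scale with the standard error (SE) of the fit, and a gene is called when its adjusted p is under 0.05. Positions are given on the WBcel235 assembly. The level of *fem-3* (chromosome IV, 9104966 to 9107607) was 7.37 to 7.93 in the FEM libraries with a median of 7.70. In GEM it was 9.28, 8.93, and 10.50 at 89 h and 9.38 and 9.28 at 97 h. Every GEM library was above every FEM library, and the difference was -1.80 ± 0.24 (adjusted p = 3.32e-05). For *gon-2* on chromosome I the levels were 10.55 to 10.81 in FEM (median 10.71), and 11.01, 11.07, and 11.50 at 89 h and 11.01 and 11.05 at 97 h in GEM. The groups did not overlap, but the difference was small at -0.42 ± 0.11 (adjusted p = 0.00723), and with the 89 h libraries alone the adjusted p was 0.134. The level of *gem-1* (chromosome X, 13371542 to 13376992) was 8.51 to 9.0 in FEM (median 8.84), and 6.98, 7.18, and 6.55 at 89 h and 7.50 and 6.90 at 97 h in GEM. It was lower in every GEM library, with a difference of 1.79 ± 0.17 (adjusted p = 8.03e-07). Transcript levels of *fem-3* and *gon-2* do not mark their alleles, since either transcript can still be made.

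The strains differed over a large part of the transcriptome. Of 25985 genes in the file, 16829 had deposited values that averaged 1 or more and were tested, and 8500 were called (50.5%). In FEM 3789 genes were higher (22.5%) and in GEM 4711 were higher (28.0%). Without GEM 89 h replicate 3 and FEM 97 h replicate 2 the numbers were 4107 and 4695 of 16683 genes tested. List counts below without this pair stand against these. The directions differed in size. The median fitted difference of the genes higher in FEM was 2.38, and 1483 of them differed by at least 4 and 940 by at least 6. The median of the genes higher in GEM was -0.90, and only 103 of them differed by at least 4 and 2 by at least 6. Of the genes higher in FEM 140 were at 0 in every GEM library, whereas 2 of the genes higher in GEM were at 0 in every FEM library. Genes known only by a sequence name made up 50.4% of the genes tested, 62.7% of those higher in FEM, and 45.6% of those higher in GEM.

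**Figure D1:**
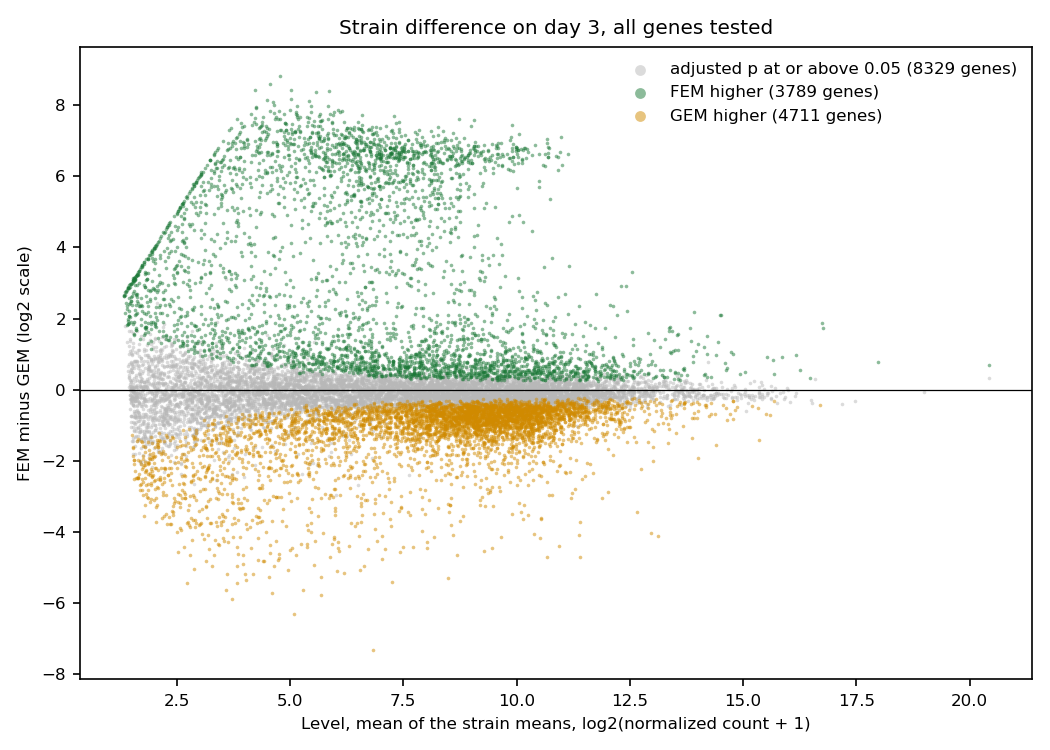
Each point is a gene tested on day 3, placed by the mean of its FEM and GEM levels on the x axis and by its FEM minus GEM difference on the y axis, both on the log2 scale, and coloured by call. The 3789 genes higher in FEM reach differences above 8 and many lie in a band between 6 and 7.5, whereas most of the 4711 genes higher in GEM lie between 0 and -2.

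The balance between the directions depends on how libraries are scaled. The median difference of all genes tested was -0.13 in the deposited values, -0.44 after quantile normalization, -0.62 after centring each library on its median, and -0.07 after centring on muscle and neuron genes. The share of calls higher in FEM was 44.6%, 27.5%, 21.6%, and 50.9% under these scalings. After centring on library medians 9701 of the 16829 genes tested were called higher in GEM and 2678 higher in FEM. List counts below under a scaling stand against all genes under that scaling. In the deposited scaling these were 22.5% higher in FEM and 28.0% higher in GEM. Calls that hold under all 4 scalings numbered 2578 higher in FEM (15.3% of the genes tested) and 3772 higher in GEM (22.4%), and for many of the gene groups below the counts that held, or those after centring on library medians, are given beside the main ones.

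The largest differences higher in FEM were those of genes that were near or at 0 in GEM. The gene *nspa-7*, of a nematode-specific peptide family (chromosome V, 14889407 to 14889511), was at 8.81 to 9.64 in FEM (median 9.14). In GEM it was at 0, 1.85, and 0 at 89 h and at 0 in both 97 h libraries. The difference was 8.83 ± 0.34 (adjusted p = 4.42e-11), with no overlap. With 2 reads over the GEM libraries and 2550 over the FEM libraries, the ratio of normalized counts was 1240 (95% exact interval 342 to 10200, counting error only). Since 1 is added to each count, log2 differences of genes with so few reads depend on that choice, and for *F49B2.9* (1 GEM read), *ttr-58* (3), and *clec-260* (2) the ratios were 1970 (354 to 78000), 502 (172 to 2440), and 490 (135 to 4050). For *msd-3*, named for a major sperm protein domain, the FEM levels were 7.89 to 8.69 (median 8.53) and no GEM library had a read. Its normalized count was at least 92.2-fold higher in FEM, taking 3 reads per GEM library as the floor. The mitochondrial fission gene homolog *fis-1* (chromosome II, 6755174 to 6755965) was at 9.28 to 9.55 in FEM (median 9.45), and at 2.02, 3.13, and 1.93 at 89 h and 0 and 0 at 97 h in GEM. The groups were far apart for this gene too, with a difference of 8.11 ± 0.42 (adjusted p = 1.11e-09). The neprilysin family peptidase gene *nep-9* was at 8.53 to 9.18 in FEM (median 9.0), and at 2.48, 0, and 0 at 89 h and 0 and 2.73 at 97 h in GEM, a difference of 7.87 ± 0.50 (adjusted p = 1.37e-08). The others named by the same rule were the acyltransferase genes *oac-19* (7.99) and *oac-23* (7.97), the sperm-specific family gene *ssp-33* (7.97), the transthyretin-related gene *ttr-58* (7.83), and *F49B2.9* (8.61), *F59A1.15* (8.42), *T28B8.4* (8.40), and *Y59H11AM.4* (8.38), which have only sequence names. None of their FEM libraries was below 8.04 and none of their GEM libraries above 3.12.

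**Figure D2:**
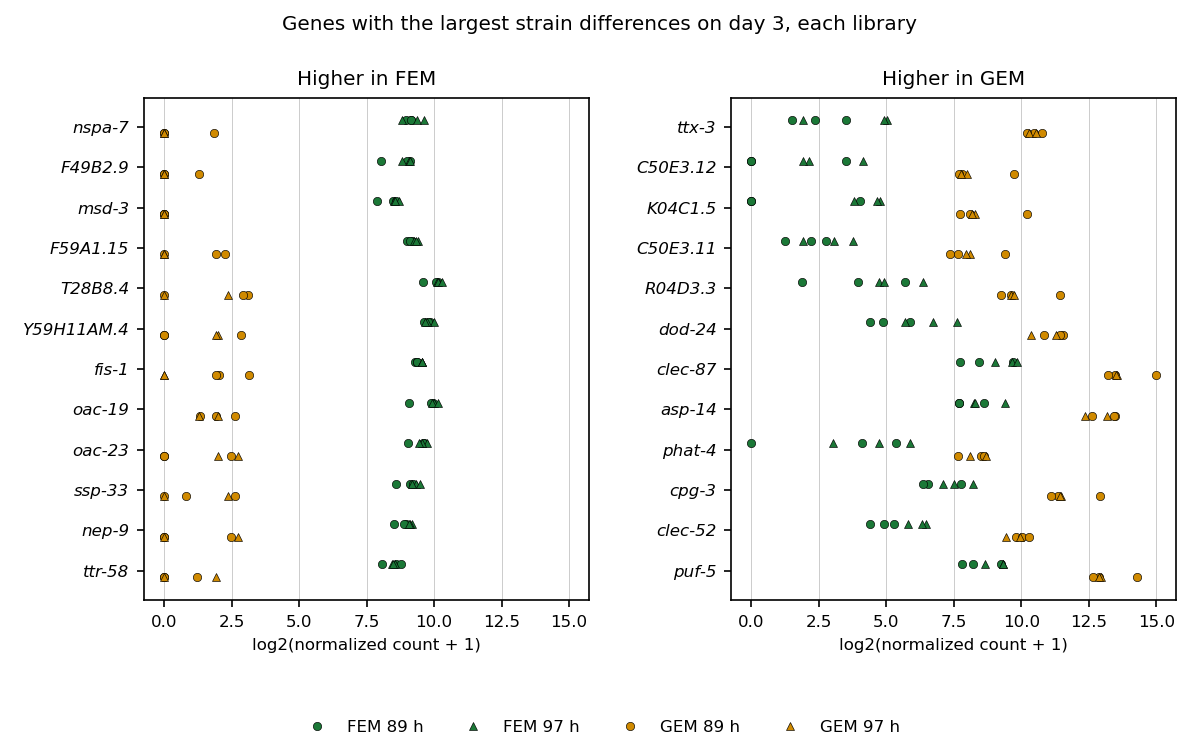
Points give log2(normalized count + 1) of each day 3 library for the 12 genes with the largest differences in each direction that met the rule for named genes, with circles for 89 h and triangles for 97 h. On the left all FEM points lie at 7.89 or above and all GEM points at 3.13 or below, and on the right GEM 89 h replicate 3 is the highest GEM point for 8 of 12 genes.

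Genes of sperm were higher in FEM almost without exception. Major sperm proteins form the cytoskeleton of the crawling sperm and signal to oocytes, and all 31 of their genes in the file were tested and called higher in FEM, with a median difference of 6.79 against -0.13 for all genes. Their mean level was 11.4 to 12.1 in the FEM libraries and 4.84 to 5.67 in the GEM libraries, and they took up 0.616 to 0.908% of the normalized counts in FEM and 0.00508 to 0.0113% in GEM. For *msp-36* (chromosome IV, 10095433 to 10095816) the FEM levels were 12.85 to 14.07 (median 13.82), and the GEM levels were 6.26, 6.35, and 5.94 at 89 h and 5.90 and 6.36 at 97 h. The difference was 7.43 ± 0.19 (adjusted p = 7.56e-13). The copies of this family are nearly identical, so reads can be shared among them and single members are uncertain.

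Of 28 genes that act in sperm development and fertilization, 25 were higher in FEM and none in GEM (median 5.36). The palmitoyltransferase gene *spe-10*, needed for the membranous organelles of sperm, was at 9.49 to 9.64 in FEM (median 9.56), and at 3.35, 2.63, and 1.27 at 89 h and 2.81 and 3.00 at 97 h in GEM. Its difference was 6.93 ± 0.29 (adjusted p = 1.32e-10), and no library of a strain came near those of the other. Among the 3 members that were not called were *spe-39* (-0.30, adjusted p = 0.215) and *spe-48* (-0.15, adjusted p = 0.364), whose levels overlapped between the strains. All 16 genes of the sperm-specific families ssp and ssq and all 9 of the nematode-specific peptide family d were higher in FEM, with medians of 6.83 and 6.57. In these 4 lists the 81 calls held under all 4 scalings and in every fit that left out a library. Markers of male neurons and seminal fluid did not follow. Only 3 of 8 passed the filter on low values, and of these only the seminal protease gene *try-5* was called, at 6.28 to 6.87 in FEM and 6.77 to 7.66 in GEM (-0.50 ± 0.19, adjusted p = 0.0458), a call that was lost after centring on muscle and neuron genes and without the pair of libraries that stood apart.

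The differences of strongly expressed FEM genes fell into a narrow range. Among the 628 genes with a FEM mean of at least 10 and a difference of at least 4, the middle of the range was 6.53, the quartiles were 6.02 and 6.79, and 464 genes (73.9%) lay between 6 and 7.5. The same genes were lower than the FEM mean by a median of 6.46, 6.36, and 6.74 in the 89 h libraries and 6.66 and 6.14 in the 97 h libraries of GEM. These genes were selected by this contrast, so the values are a description.

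The genes higher in FEM were spread unevenly over the chromosomes. On the X chromosome 18 of 2267 genes tested (0.794%) were higher in FEM by at least 4, against 6.82 to 13.9% on the autosomes. In all, 17.8% of the genes tested on X were called higher in FEM, above the share on chromosome III and below the 23.1 to 27.6% on the other autosomes. Genes called higher in GEM made up 18.8% on X and 36.2% on III. The distribution was not tested, since neighbouring genes and gene families are not independent.

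**Figure D3:**
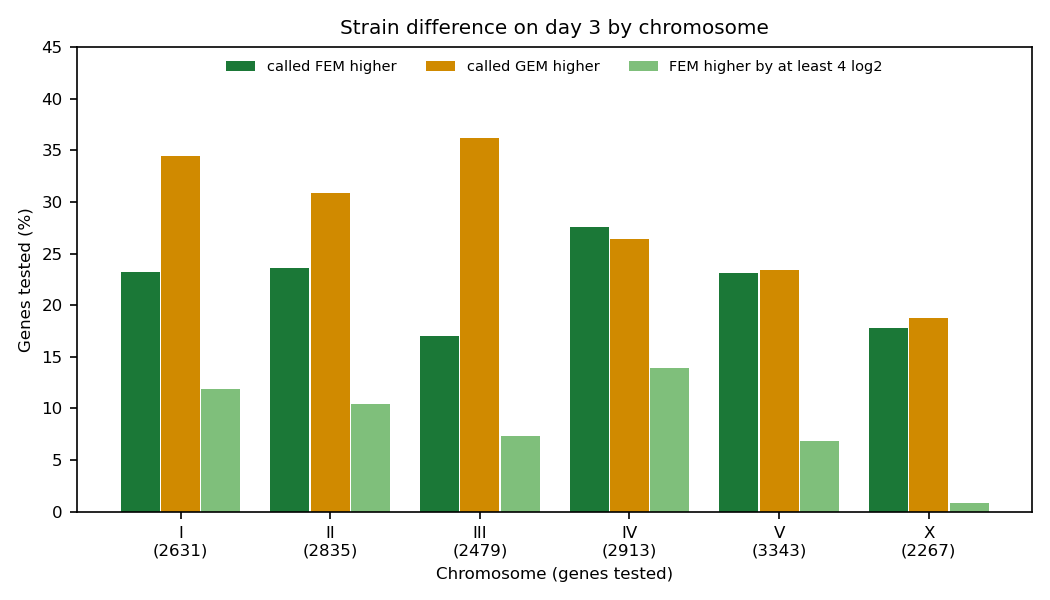
Bars give the percentage of the genes tested on each chromosome that were called higher in FEM, called higher in GEM, or called higher in FEM by at least 4 on the log2 scale, with the number of genes tested in parentheses. The last of these is 0.794% on X and at least 6.82% on each autosome.

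The genes with the largest differences higher in GEM were a mixed group. The largest was that of *ttx-3*, a LIM homeodomain factor that specifies the AIY interneurons (chromosome X, 11764456 to 11769378). It was at 1.49 to 5.01 in FEM (median 2.94), and at 10.47, 10.75, and 10.20 at 89 h and 10.29 and 10.55 at 97 h in GEM. The difference was -7.33 ± 0.55 (adjusted p = 8.71e-08) and was similar on day 2 (-7.24) and on days 4 and 5 (-6.71). The strain list of the study includes a GEM stock with the integrated reporter *mgIs49*, in which GFP is driven by *mlt-10* and *ttx-1* promoters, and the labels give only the alleles *q388* and *bc364*. The molting gene *mlt-10* was at 3.58 to 6.26 in FEM (median 4.24) and at 7.82, 8.04, and 8.50 at 89 h and 8.02 and 9.31 at 97 h in GEM (-3.75 ± 0.46, adjusted p = 1.39e-05), and *ttx-1* at 6.56 to 7.20 in FEM and 7.23 to 7.75 in GEM (-0.59 ± 0.15, adjusted p = 0.00538). The latter pair was looked up after the values of *ttx-3* were seen, and the part of a reporter in these levels was not tested.

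Several of the other large differences were in genes of oocytes and eggshells, and others in genes of proteases and lectins. The chondroitin proteoglycan gene *cpg-3*, a component of the eggshell, was at 6.35 to 8.22 in FEM (median 7.30), and at 11.37, 11.11, and 12.91 at 89 h and 11.48 and 11.43 at 97 h in GEM (-4.44 ± 0.37, adjusted p = 2.88e-07). The RNA-binding protein gene *puf-5*, a regulator of oocyte development, was at 7.79 to 9.33 in FEM (median 8.95), and at 12.87, 12.64, and 14.30 at 89 h and 12.94 and 12.88 at 97 h in GEM (-4.39 ± 0.34, adjusted p = 1.17e-07). For both genes, as for the C-type lectin gene *clec-87* (-4.71) and for *C50E3.12* (-6.31), *K04C1.5* (-5.78), and *R04D3.3* (-5.39), GEM 89 h replicate 3 lay far above the other GEM libraries, which still lay above all FEM libraries. A different order was seen for *dod-24*, of the downstream-of-*daf-16* family (chromosome IV, 12940106 to 12941354). It was at 4.39 to 7.60 in FEM (median 5.78), and at 10.83, 11.53, and 11.44 at 89 h and 10.36 and 11.28 at 97 h in GEM, a difference of -5.30 ± 0.45 (adjusted p = 3.04e-07). The aspartyl protease gene *asp-14* was at 7.68 to 9.41 in FEM and 12.35 to 13.46 in GEM (-4.71 ± 0.31, adjusted p = 1.82e-08), the C-type lectin gene *clec-52* at 4.41 to 6.48 and 9.42 to 10.30 (-4.42), the pharyngeal gland gene *phat-4* at 0 to 5.87 and 7.65 to 8.70 (-4.55), and *C50E3.11* at 1.24 to 3.75 and 7.36 to 9.38 (-5.64). None of these genes had an overlap between the strains.

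Transcripts of oocytes were higher in GEM and were also present in FEM. All 14 oocyte genes were called higher in GEM, with a median difference of -3.04 and a mean level of 9.04 to 9.81 in FEM and 12.1 to 13.8 in GEM. They included *pos-1*, a zinc finger protein gene of maternal RNA that acts in embryonic fate (chromosome V, 8414086 to 8415254), at 8.60 to 9.87 in FEM (median 9.46), and at 13.11, 12.84, and 14.76 at 89 h and 13.19 and 13.19 at 97 h in GEM. The difference was -4.09 ± 0.34 (adjusted p = 2.44e-07). The smallest differences of the list were those of *oma-1*, which is needed for oocyte maturation (-1.36), and *mex-5*, an RNA-binding protein of the embryo's polarity (-1.62). Among 15 genes of the eggshell and egg activation, 13 were higher in GEM, led by *cpg-3* and the sperm-receptor-like gene *egg-1* (-4.18 ± 0.34, adjusted p = 2.06e-07).

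The remaining pair of eggshell genes went the other way. The transcripts of *perm-2* and *perm-4*, which encode proteins of the eggshell's permeability barrier, were higher in FEM. The level of *perm-2* (chromosome IV, 1126790 to 1128865) was 17.33 to 17.76 in FEM (median 17.67), and 15.74, 15.94, and 16.30 at 89 h and 15.71 and 15.74 at 97 h in GEM, a difference of 1.73 ± 0.13 (adjusted p = 9.83e-08). For its neighbour *perm-4* the difference was 1.88 ± 0.14 (adjusted p = 1.05e-07). The eggshell list, with this pair in it, took up 1.47 to 1.77% of normalized counts in FEM and 0.864 to 1.42% in GEM, although most of its members were higher in GEM. The calls of the oocyte and eggshell lists held under all 4 scalings and without GEM 89 h replicate 3 and FEM 97 h replicate 2. Of 10 early embryo genes only 5 passed the filter, and 3 of these were higher in GEM: the hatching protease gene *hch-1*, at 0 to 4.92 in FEM and 2.63 to 8.64 in GEM (-3.11 ± 0.97, adjusted p = 0.017), and the transcription factor genes *ceh-51* (-1.85) and *tbx-37* (-1.57). The groups overlapped for each of these genes, and 2 were called without GEM 89 h replicate 3 and FEM 97 h replicate 2. Leaving out single libraries gave 2 to 5 calls.

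Most genes of DNA replication and of germline stem cells and meiotic entry were higher in GEM as well. Which cells held these transcripts was not tested. All 16 DNA replication genes were called higher in GEM (median -1.82), and 15 under all scalings. The ribonucleotide reductase gene *rnr-1* (chromosome III, 9225339 to 9228798) was at 9.75 to 9.98 in FEM (median 9.86), and at 11.86, 11.53, and 13.01 at 89 h and 11.95 and 11.79 at 97 h in GEM, a difference of -2.16 ± 0.22 (adjusted p = 1.81e-06). Of 10 regulators of germline stem cells and meiotic entry, 7 were higher in GEM and none in FEM. The Notch target *sygl-1*, which maintains stem cells, differed by -2.60 ± 0.23 (adjusted p = 4.1e-07), with levels of 8.38 to 8.71 in FEM and 10.66 to 12.18 in GEM. The translational repressor gene *gld-1* was at 11.22 to 11.87 in FEM and 13.39 to 14.83 in GEM (-2.23 ± 0.22, adjusted p = 1.81e-06). The poly(A) polymerase gene *gld-2* was not called (0.43, adjusted p = 0.0831).

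Other germline components were split. P granules are RNA-rich bodies of germ cells, and 10 of 13 genes for their proteins were higher in GEM (median -1.34, 9 under all scalings), with *meg-1* at -4.10 ± 0.44 (adjusted p = 3.52e-06) and *pgl-1* at -1.38 ± 0.18 (adjusted p = 2.98e-05). *pgl-3* and *glh-4* were not called (-0.11 and 0.04). Of 23 genes of meiotic chromosome pairing and recombination 9 were higher in GEM and 5 under all scalings, with 22 after centring on library medians and 5 to 14 when a library was left out. The X chromosome pairing protein gene *him-8* was at 7.63 to 7.99 in FEM and 8.51 to 9.82 in GEM (-1.27 ± 0.20, adjusted p = 0.000157), whereas the synaptonemal complex gene *syp-1* was at 11.09 to 11.27 and 10.63 to 11.76 (0.15, adjusted p = 0.489). Among 16 genes of cell division 10 were higher in GEM (9 under all scalings), including the mitotic cyclin *cyb-3* (-2.89 ± 0.29, adjusted p = 1.61e-06). The cyclin B gene *cyb-1* was the exception, at 13.58 to 14.17 in FEM and 12 to 13.72 in GEM (1.41 ± 0.25, adjusted p = 0.000431), with GEM 89 h replicate 3 inside the FEM range. Without the pair of libraries that stood apart 5 members of the list were higher in FEM, where 4107 of all 16683 genes tested were. Of 68 histone genes 31 passed the filter. In GEM 8 were higher, a share near the 28.0% of all genes, and in FEM 1, below the 22.5%. Without that pair the counts were 9 and 4. After centring on library medians 20 were higher in GEM, where 9701 of all 16829 genes were.

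**Figure D4:**
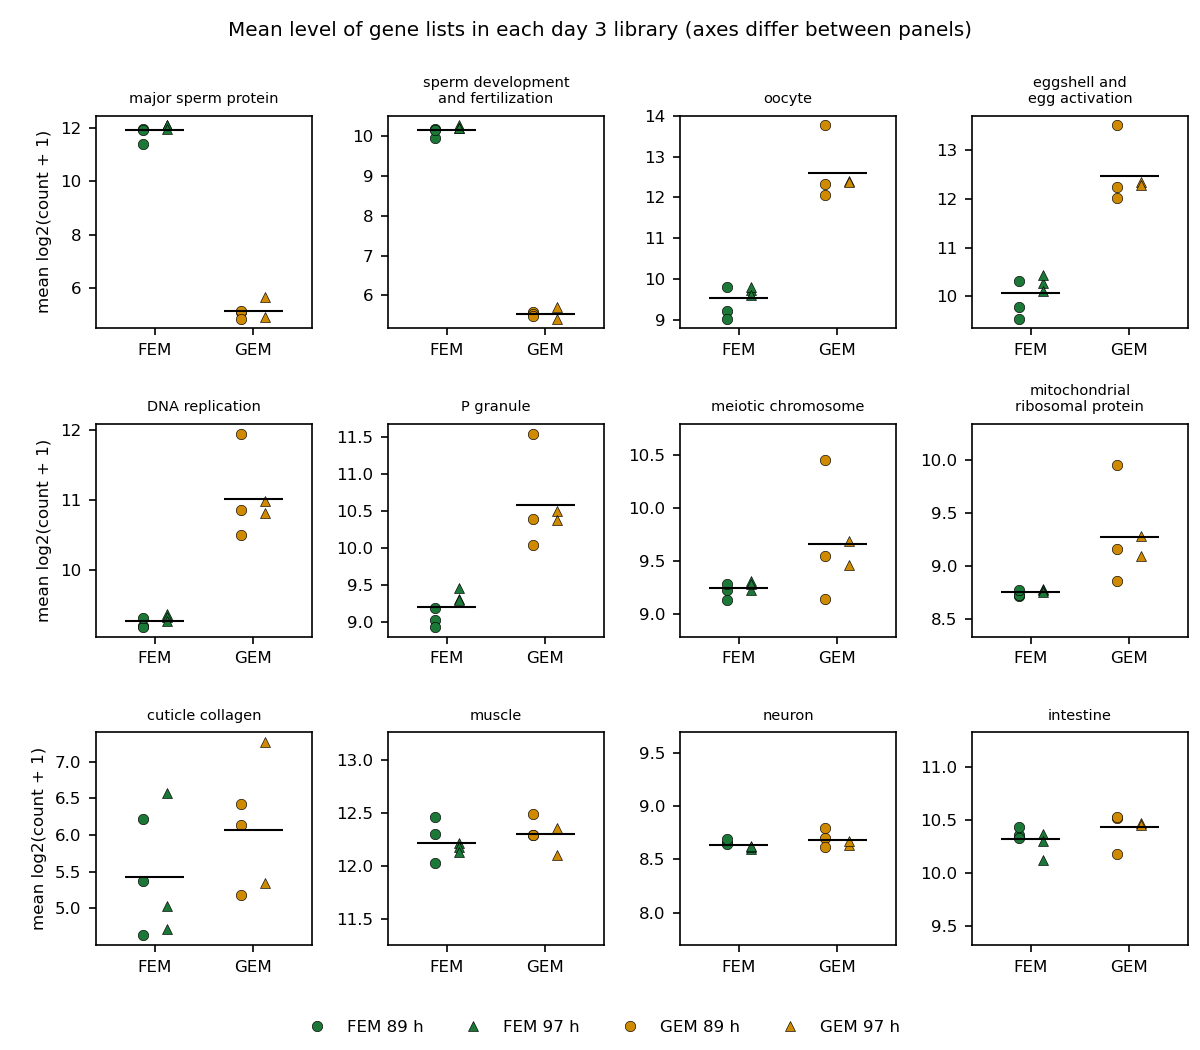
Each panel plots, for a gene list, the mean log2(normalized count + 1) of its members in each FEM and GEM library of day 3 (circles 89 h, triangles 97 h, bars the strain mean), on a y axis of its own. Sperm lists are higher in all FEM libraries and oocyte, eggshell, DNA replication, and P granule lists in all GEM libraries, with GEM 89 h replicate 3 on top, whereas the strains overlap for meiotic chromosome, collagen, muscle, neuron, and intestine genes.

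Several families held members that were far higher in FEM while their relatives were not. The Argonautes *alg-3* and *alg-4*, which act in spermatogenesis, were the only 2 of 12 Argonaute genes called higher in FEM (4 were without the pair of libraries that stood apart), and 5 were higher in GEM. The level of *alg-3* (chromosome IV, 11704246 to 11708264) was 12.35 to 12.57 in FEM (median 12.45), and 6.0, 5.64, and 5.18 at 89 h and 5.66 and 6.09 at 97 h in GEM, a difference of 6.73 ± 0.15 (adjusted p = 2.7e-13). The piRNA Argonaute gene *prg-1* was not called (-0.03, adjusted p = 0.899), and *ergo-1* was higher in GEM (-2.40 ± 0.25, adjusted p = 2.83e-06). Among histones *his-70*, a variant of histone H3, was at 10.06 to 10.40 in FEM and 1.27 to 4.04 in GEM (7.34 ± 0.41, adjusted p = 2.75e-09), while the variant gene *his-72* was higher in GEM (-0.63 ± 0.17, adjusted p = 0.00754). The phosphofructokinase paralog *pfk-1.2* was at 10.59 to 10.81 in FEM and 2.45 to 4.60 in GEM (7.14 ± 0.30, adjusted p = 1.05e-10). Likewise the proteasome lid paralog *rpn-6.2* was higher in FEM (3.05 ± 0.15, adjusted p = 9.08e-10) and *rpn-6.1* in GEM (-0.67 ± 0.14, adjusted p = 0.00178). Of 80 cytosolic ribosomal protein genes only *rpl-42* was higher in FEM, at 8.44 to 9.03 against 0 to 1.93 in GEM (7.48 ± 0.29, adjusted p = 4.28e-11). The fatty acid elongase genes *elo-7* (6.68 ± 0.32, adjusted p = 5.01e-10) and *elo-8* (4.51 ± 0.15, adjusted p = 7.55e-12) and the collagen gene *col-135* (4.70 ± 0.22, adjusted p = 3.91e-10) also lay far above the rest of their lists.

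Among 14 sex determination genes 10 were higher in GEM and 3 in FEM (8 and 2 under all scalings). The direct regulators of the sperm fate were among those higher in FEM. The level of *fog-3* was 10.42 to 10.92 in FEM (median 10.79), and 7.68, 7.36, and 7.62 at 89 h and 7.85 and 7.49 at 97 h in GEM (3.13 ± 0.13, adjusted p = 8.5e-11), and *fog-1* was at 11.08 to 11.66 in FEM and 9.36 to 10.46 in GEM (1.56 ± 0.18, adjusted p = 1.01e-05). The early regulators *xol-1* (-3.07 ± 0.36, adjusted p = 9.14e-06) and *her-1* (-2.88 ± 0.61, adjusted p = 0.00158), which promote male development in XO animals, were at low levels in both strains and higher in GEM. Of the 7 somatic gonad genes tested, of 8, 5 were higher in FEM and none in GEM (3 under all scalings). The gap junction genes of the gonadal sheath led the list, with *inx-8* at 11.77 to 11.93 in FEM (median 11.89), and at 9.29, 8.86, and 10.52 at 89 h and 9.46 and 9.36 at 97 h in GEM (2.37 ± 0.23, adjusted p = 1.19e-06), and *inx-9* at a difference of 1.59 ± 0.19 (adjusted p = 9.72e-06). The Notch ligand gene *lag-2* of the distal tip cell was at 2.68 to 4.37 in FEM and 3.23 to 4.34 in GEM and was not called (-0.32, adjusted p = 0.5).

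Marker genes of the large somatic tissues were present in all libraries and differed little in the deposited scaling. In the neuron, muscle, and intestine lists the shares called were below the 22.5% (FEM) and 28.0% (GEM) of all genes. Of 20 neuron genes 1 was called in each direction, and 16 were higher in GEM after centring on library medians. Their mean level was 8.60 to 8.69 in FEM and 8.62 to 8.79 in GEM. Of 25 muscle genes 3 were higher in FEM and 5 in GEM, with the troponin T gene *mup-2* at -0.92 ± 0.10 (adjusted p = 2.84e-06) as the largest difference, and after centring on library medians 17 were higher in GEM. Of 10 intestine genes 2 were higher in GEM, among them the peptide transporter gene *pept-1* at 6.68 to 7.96 in FEM and 8.06 to 8.57 in GEM (-0.96 ± 0.21, adjusted p = 0.00176), and the differentiation factor gene *elt-2* was not called (0.21, adjusted p = 0.172). The yolk protein genes, which the intestine expresses for oocytes, took up 12.8 to 17.5% of normalized counts in FEM and 10.5 to 14.6% in GEM. Of 6 genes *vit-2* (0.71 ± 0.12, adjusted p = 0.00025) and *vit-1* (0.93 ± 0.27, adjusted p = 0.0111) were called higher in FEM, neither under all scalings, and after centring on library medians 2 members were higher in GEM.

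Secreted peptides of neurons differed in a minority of genes. Among 82 FMRFamide-like and neuropeptide-like genes tested, of 86, 21 were higher in FEM, a share near the 22.5% of all genes. In GEM 6 were higher, below the 28.0% of all genes. Only 4 and 6 were called under all scalings. After centring on library medians the counts were 5 and 33, where 2678 and 9701 of all 16829 genes were called. The peptide gene *nlp-4* was at 9.32 to 10.08 in FEM (median 9.95), and at 3.64, 4.15, and 4.27 at 89 h and 4.24 and 4.27 at 97 h in GEM, a difference of 5.73 ± 0.17 (adjusted p = 2.58e-12) that was far from the others of the list. Of 36 insulin-like genes tested, of 40, 10 were higher in FEM and 3 in GEM, against 22.5% and 28.0% of all genes. The calls numbered 7 and 3 under all scalings, and 7 and 9 after centring on library medians. The largest difference was that of *ins-37*, at 10.17 to 10.59 in FEM and 4.67 to 5.64 in GEM (5.23 ± 0.17, adjusted p = 7.88e-12). In the other direction *ins-34* was at 0 to 3.16 and 3.79 to 7.01 (-2.80 ± 0.64, adjusted p = 0.00266).

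Genes of the cuticle varied widely between libraries of a strain. Of 149 collagen genes tested, of 172, 36 were higher in GEM and 2 in FEM (median -0.68), against 28.0% and 22.5% of all genes, with 33 and 1 under all scalings and 72 and 1 after centring on library medians. The mean level was 4.63 to 6.57 in FEM and 5.18 to 7.27 in GEM, and FEM 97 h replicate 2 was the highest FEM library. The body-shape collagen gene *dpy-7* was at 0 to 4.44 in FEM and 2.83 to 7.46 in GEM (-3.32 ± 0.97, adjusted p = 0.0117). The number higher in GEM was 22 without GEM 97 h replicate 2 and at most 41 when another library was left out. Of 12 molting genes 5 were higher in GEM and 3 in FEM (5 and 1 under all scalings), against 28.0% and 22.5% of all genes. After *mlt-10* the largest differences were those of the protease inhibitor gene *mlt-11* (-2.01 ± 0.51, adjusted p = 0.00549) and, in the other direction, of the receptor gene *nhr-23* (1.32 ± 0.22, adjusted p = 0.000234).

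Genes of translation, mitochondria, and sugar metabolism were called in different proportions. Of 63 mitochondrial ribosomal protein genes 45 were higher in GEM and none in FEM (median -0.50), 22 under all scalings, with *mrpl-45* at 8.09 to 8.38 in FEM and 8.64 to 10.01 in GEM (-1.14 ± 0.20, adjusted p = 0.000341). Without GEM 97 h replicate 1 the number was 27. Among cytosolic ribosomal proteins 7 of 80 were higher in GEM, a share below the 28.0% of all genes, with 1 under all scalings, 2 to 14 when a library was left out, and 78 after centring on library medians. They took up 6.82 to 7.50% of normalized counts in FEM and 7.99 to 9.53% in GEM. Of 27 nuclear genes of oxidative phosphorylation 7 were higher in GEM (2 under all scalings), a share near that of all genes. Without the pair of libraries that stood apart 4 were higher in FEM, where 4107 of all 16683 genes tested were. Of 12 genes of the mitochondrial genome 2 were higher in FEM (1, with 8 higher in GEM, after centring on library medians), with *nduo-2* at 11.25 to 11.95 in FEM and 10.47 to 10.99 in GEM (0.88 ± 0.14, adjusted p = 0.000171). The TCA cycle list had 1 of 24 genes higher in FEM (4 without that pair) and 6 in GEM, a share below that of all genes, led by the isocitrate dehydrogenase gene *idh-1* (-0.66 ± 0.14, adjusted p = 0.00123). For the genes higher in GEM the count was 4 under all scalings, 21 after centring on library medians, and 3 to 8 when a library was left out. Among 23 genes of glycolysis and gluconeogenesis 3 were higher in FEM and 9 in GEM, shares below and above those of all genes. Under all scalings the counts were 1 and 7, and after centring on library medians 1 and 19. The hexokinase gene *hxk-1* was at 10.46 to 10.98 in FEM and 11.14 to 12.84 in GEM (-0.89 ± 0.25, adjusted p = 0.00928), and the muscle aldolase paralog *aldo-1* was higher in FEM (0.73 ± 0.11, adjusted p = 0.000132).

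Lipid genes were divided between the strains, against 22.5% of all genes higher in FEM and 28.0% higher in GEM. Of 26 genes of lipases and lipid-binding proteins tested, of 27, 8 were higher in FEM and 4 in GEM (6 and 3 under all scalings, 6 and 16 after centring on library medians). The fatty acid- and retinol-binding protein gene *far-6* was at 13.73 to 14.37 in FEM and 12.39 to 12.70 in GEM (1.64 ± 0.13, adjusted p = 1.03e-07), and *far-2* differed by 0.78 ± 0.10 (adjusted p = 2.93e-05). The lysosomal lipase gene *lipl-1* was at 6.65 to 9.16 and 8.40 to 10.29 (-1.67 ± 0.47, adjusted p = 0.00923). Together the list took up 1.92 to 2.22% of normalized counts in FEM and 0.923 to 1.52% in GEM. Of 20 genes of fatty acid synthesis, desaturation, and elongation 7 were higher in FEM and 2 in GEM (3 and 1 under all scalings, 3 and 12 after centring on library medians), and the stearoyl desaturase genes *fat-6* (-0.16, adjusted p = 0.263) and *fat-7* (-0.43, adjusted p = 0.454) were not called.

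Genes known from the longevity of germline-deficient worms were called in both directions in the deposited scaling, but only calls higher in GEM held under all scalings. Among 16 of them 4 were higher in FEM and 7 in GEM (none and 6 under all scalings), against 22.5% and 28.0% of all genes. The superoxide dismutase gene *sod-3*, a DAF-16 target (chromosome X, 17092753 to 17094306), was at 6.56 to 7.56 in FEM (median 6.99), and at 8.25, 9.05, and 8.05 at 89 h and 7.72 and 8.44 at 97 h in GEM (-1.24 ± 0.20, adjusted p = 0.000202). The genes of dafachronic acid synthesis were higher in FEM, with *daf-36* at 8.43 to 8.80 and 7.53 to 8.15 (0.81 ± 0.15, adjusted p = 0.00064) and *daf-9* at 4.41 to 5.50 and 2.45 to 4.86 (1.43 ± 0.40, adjusted p = 0.00937), but neither call held under all scalings. Of 11 superoxide, catalase, and peroxiredoxin genes 2 were higher in FEM and 5 in GEM (none and 4 under all scalings), including *prdx-2* (-0.69 ± 0.10, adjusted p = 7.56e-05). Of 8 small heat shock genes tested, of 12, only *sip-1*, which is needed in the embryo, was called, at 14.37 to 15.21 in FEM and 15.71 to 17.20 in GEM (-1.40 ± 0.24, adjusted p = 0.000308).

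Genes of detoxification, antimicrobial and C-type lectin, nuclear hormone receptor, transthyretin-related, and proteasome lists were called in both directions. Among 175 detoxification genes tested, of 187, 33 were higher in FEM and 42 in GEM (13 and 37 under all scalings, 15 and 95 after centring on library medians), both shares below those of all genes, with the glucuronosyltransferase gene *ugt-9* at 9.31 to 10.56 in FEM and 7.40 to 7.68 in GEM (2.40 ± 0.17, adjusted p = 3.7e-08) and *gst-25* at 0 to 2.16 and 3.85 to 4.39 (-3.54 ± 0.50, adjusted p = 6e-05). Counts for 209 antimicrobial and C-type lectin genes tested, of 324, stand against 22.5% and 28.0% of all genes. Of these family members 59 were higher in FEM and 45 in GEM (36 and 39 under all scalings, 37 and 90 after centring on library medians). They ranged from *clec-260* (7.44 ± 0.28, adjusted p = 4.12e-11) and *clec-123*, at 11.69 to 12.18 in FEM and 3.91 to 5.68 in GEM (7.27 ± 0.24, adjusted p = 8.57e-12), to *clec-87* and *clec-3* (-4.45 ± 0.52, adjusted p = 8.77e-06). Of 196 nuclear hormone receptor genes tested, of 268, 19 were higher in FEM and 34 in GEM, both shares below those of all genes (22.5% and 28.0%). Under all scalings 6 and 29 were called, and after centring on library medians 6 and 119. Under that centring 2678 and 9701 of all 16829 genes were called. The fat metabolism regulator *nhr-49* was at 10.82 to 11.12 and 11.47 to 12.10 (-0.62 ± 0.13, adjusted p = 0.00116). Transthyretin-related genes were called higher in FEM in 28 of 56 cases, of 58, and higher in GEM in 7 (17 and 7 under all scalings, 17 and 24 after centring on library medians), with *ttr-12* at 9.45 to 9.74 and 1.85 to 3.23 (7.08 ± 0.21, adjusted p = 2.8e-12). Of 33 proteasome genes 3 were higher in FEM and 2 in GEM (1 and 2 under all scalings), both shares below those of all genes. After centring on library medians 27 were higher in GEM. Without the pair of libraries that stood apart, 10 were higher in FEM, where 4107 of all 16683 genes tested were.

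Within day 3 the strain difference was called to move in a single gene. No gene was called for the hour itself by limma, with 375 at an unadjusted p under 0.05, and the strain by hour interaction called 1 of 16829 genes (0.00594%), with 312 at an unadjusted p under 0.05. This gene was *pud-2.1*, of a small family named for proteins raised in insulin receptor mutants. In FEM it was at 11.34, 11.40, and 11.47 at 89 h and at 2.70, 4.56, and 3.78 at 97 h, and in GEM it was at 1.93 to 3.13 throughout. The strain difference at 97 h minus that at 89 h was -7.29 ± 0.66 (adjusted p = 0.00245). On day 2 the FEM libraries were at 2.68 to 4.72 and on days 4 and 5 at 0.909 to 3.78, so the 3 FEM libraries of 89 h were the only FEM libraries of days 2 to 5 with a high level, whereas GEM reached 9.31 on days 4 and 5. The interaction called between 1 and 8 genes when a library was left out, with 2 without GEM 97 h replicate 1 and 8 without GEM 97 h replicate 2. The gene has a close paralog, with which reads may be shared.

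Against day 2, the strain difference on day 3 had moved toward GEM in many genes. In a model of all 45 libraries, the difference on day 3 minus that on day 2 was called above 0 for 820 of 16668 genes (4.92%) and called below 0 for 5291 (31.7%). Of these calls 13.4% were above 0, against 46.6% after quantile normalization, 44.4% after centring on library medians, and 2.95% after centring on muscle and neuron genes. Under all 4 scalings 189 and 3490 were called. All 14 oocyte genes, 13 of 15 eggshell genes, all 16 DNA replication genes, all 23 meiotic chromosome genes, all 10 stem cell and meiotic entry genes, 61 of 63 mitochondrial ribosomal protein genes, and all 33 proteasome genes were called below 0. The median difference of the oocyte list was -0.88 on day 2 and -3.04 on day 3, that of the DNA replication list 0.26 and -1.82, and that of the meiotic chromosome list 1.48 and -0.46. The change was seen in *rnr-1*, which differed by 0.01 on day 2 (adjusted p = 0.967) and by -2.16 on day 3, and in *fem-3* itself, which differed by 0.35 on day 2 (adjusted p = 0.219), with a change of -2.13 (adjusted p = 9.03e-06). Sperm lists moved little, with medians of 6.52 on day 2 and 6.79 on day 3 for the 31 major sperm protein genes, of which none was called. Of the 28 genes of sperm development 8 were called below 0 and 1 above 0. For muscle genes 9 of 25 were called, all above 0.

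**Figure D5:**
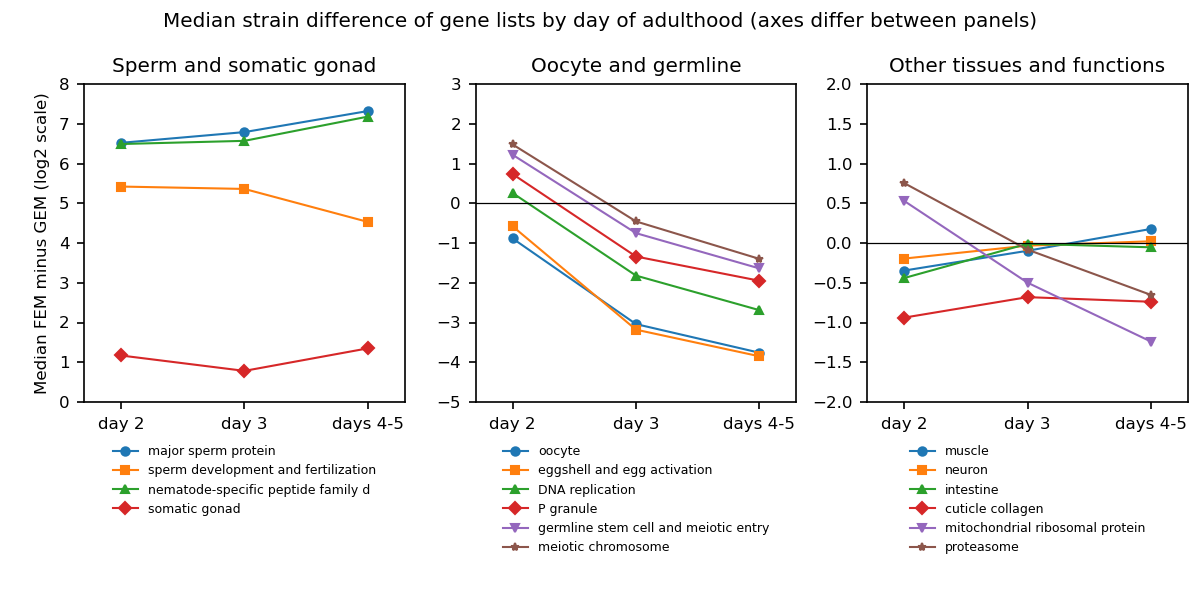
Lines connect the median FEM minus GEM difference (log2 scale) of the members of each gene list on day 2, day 3, and days 4 and 5 of adulthood, in panels with separate y axes. Sperm lists lie between 4.53 and 7.32 on all days, and oocyte and germline lists are lower on day 3 than on day 2, as the oocyte medians of -0.88 and -3.04 show.

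After day 3 the comparison was less certain. The difference on days 4 and 5 minus that on day 3 was called above 0 for 93 of 16894 genes (0.55%) and called below 0 for 2589 (15.3%), and 31 and 96 were called under all 4 scalings. The total of 2682 was 6 without FEM 137 h replicate 1 or without GEM 117 h replicate 1, 7 without GEM 137 h replicate 1, 8 without GEM 97 h replicate 2, 15 without FEM 117 h replicate 1, 119 without GEM 89 h replicate 2, 705 without GEM 89 h replicate 1, 1036 without FEM 137 h replicate 2, 1555 without FEM 97 h replicate 1, 1648 without FEM 89 h replicate 3, and 5018 without GEM 89 h replicate 3. List medians on days 4 and 5 are therefore given as descriptions. They were -3.76 for oocyte genes, -2.69 for DNA replication genes, and 7.32 for major sperm protein genes.

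Gene families sharing a name stem were scanned after the values were seen, over the 131 stems with at least 10 genes tested, and no test was made. Besides the sperm families, all 18 nspc genes, 79.2% of 24 nep genes, and 66.7% of 15 irld genes, named for insulin-receptor-like domains, were called higher in FEM, against 22.5% of all genes. Higher in GEM were 82.4% of 17 taf genes of general transcription, 81.8% of 11 rpb genes of RNA polymerase II, 80.0% of 10 madf genes, 79.5% of 39 mrpl genes, and 76.0% of 25 npp genes of the nuclear pore, against 28.0% of all genes. Of the 31 mrpl calls 15 held under all scalings.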

How the data were processed

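Worms were sampled by strain and hour as the labels give them, and polyadenylated RNA was sequenced. Per the study's methods, the authors trimmed reads with Trim Galore 0.4.4, aligned them with HISAT2 2.1.0 to WBCel235, and counted them per gene without regard to strand. The authors normalized with DESeq2 and deposited log values, which are natural logs (ln) of the normalized count plus 1, to 2 decimals. The base was read from the values. In the 11 day 3 libraries, as natural log, all low values (100%) were whole multiples of 1 read's worth. The share there was at most 47.7% as log2 and 88.2% as log10. In some libraries of other days, such as FEM 41 h replicate 2, it was 100% as log10 too. The step of 1 read (0.764 to 1.83 normalized counts) gave the depth. Values were divided by the natural log of 2, because the planned tests were on the log2 scale. Rounding leaves no whole reads for high genes, so no count model was used.

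The main test was limma 3.58.1 (R 4.3.3) with strain and hour as terms, empirical Bayes moderation with a trend, and Benjamini-Hochberg adjustment over the genes whose deposited value averaged 1 or more. Contrasts with other days used 1 mean for each of 18 groups of all 45 libraries. Of the names 24881 matched Ensembl genes on WBcel235, which gave the positions, and 11 look like dates. In simulated data 55 of 100 genes changed by 1 and 85 of 98 changed by 2 on the log2 scale were recovered for the strain difference, with 9 others called among 16722 genes. Noise was drawn for each gene separately and few genes were changed. Shifts shared by a whole library, as in GEM 89 h replicate 3, were not simulated, so these rates may not hold for the real libraries. Since reads were counted without strand, *gem-1*, *ttx-3*, *mlt-10*, *clec-87*, and *ins-37* are uncertain in the 34, 80, 109, 138, and 192 bases they share with another gene. Python 3.11.15 with numpy 2.4.6, pandas 2.3.3, and matplotlib 3.10.9 was used otherwise.

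The members and the 42 gene lists (1859 genes of the file) were chosen with earlier results of these data known. Named genes are the strain alleles, the 12 largest non-overlapping calls per direction with a mean of at least 8 in the higher strain (at most 2 of a name stem and 4 sequence names), for each list the 2 largest differences per direction and the most abundant member, and the 3 largest per direction with a mean of at least 6 for the other contrasts. Other members named, such as *pgl-1*, *mlt-10*, and *ttx-1*, were picked after their values were seen. The study's methods call the libraries of a time point biological replicates, while the labels name no separate cultures, and p-values measure the spread between these samples. Alternatives were no filter, a mean of at least 3, 3 other scalings, a pseudocount of 8 in place of 1, untrended moderation, array weights, no hour term, each hour alone, the 18-group model, a minimum difference of 1, and leaving out each library. The fit without a pair of libraries was added after seeing the data.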

Additional observations from a re-analysis of the deposited data

Results flagged for a closer look

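In 82 groups of day 3 libraries (named genes and list means) 20 had a library far from the others of its strain, where chance gives about 1 in 20 for independent groups. These groups share the same libraries, and many of the genes were picked for their values. The number flagged was therefore not tested against chance. GEM 89 h replicate 3 was the highest GEM library for *fem-3* (10.50, others 8.93 to 9.38), *gon-2* (11.50, others 11.01 to 11.07), *C50E3.12* (9.72), *K04C1.5* (10.21), *R04D3.3* (11.44), *clec-87* (14.98), *cpg-3* (12.91), *puf-5* (14.30), and *F49B2.9* (1.27, others 0). It was also highest for the means of the oocyte list (13.77, others 12.06 to 12.41) and the eggshell list (13.52, others 12.01 to 12.34), and lowest for the intestine list (10.18, others 10.45 to 10.53). FEM 89 h replicate 2 was the lowest FEM library for *F49B2.9* (8.04), *msd-3* (7.89), *T28B8.4* (9.58), and *oac-19* (9.07), and for the means of the major sperm protein list (11.4, others 11.94 to 12.11), the sperm development list (9.96, others 10.16 to 10.28), and the yolk protein list (17.49, others 18.24 to 18.46). For *nspa-7* the single GEM library above 0 was 89 h replicate 2, at 1.85.

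The strain difference itself differed between times for 6111 genes (day 3 minus day 2), 2682 genes (days 4 and 5 minus day 3), and 1 gene (97 h minus 89 h), by limma. That gene, *pud-2.1*, changed by -7.29 within day 3, by 3.97 from day 2 to day 3 (adjusted p = 0.00925), and by -5.73 to days 4 and 5 (adjusted p = 0.0237), where a GEM library reached 9.31. From day 2 to day 3 the difference changed by -4.28 for *H17B01.2* (adjusted p = 0.00184), by -4.28 for *R09A8.2* (adjusted p = 0.000406), by -3.88 for *F30H5.3* (adjusted p = 0.0153), by 4.59 for *Y48G8AL.12* (adjusted p = 0.0451), and by 3.69 for the collagen gene *col-7* (adjusted p = 0.027). The latter pair overlapped between the strains on day 3. To days 4 and 5 it changed by -3.08 for *R09H3.3* (adjusted p = 0.00114), by -3.08 for *Y32G9A.5* (adjusted p = 0.0346), by 2.52 for *T16G1.6* (adjusted p = 0.0245), by 2.36 for *fat-7* (adjusted p = 0.0229), and by 2.32 for the receptor-family gene *sri-40* (adjusted p = 0.0373), in the contrast that depended on single libraries.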

How the results depend on the processing

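No paired analysis was possible because the labels carry library codes and no replicate numbers shared between the strains. For the strain difference on day 3, 8500 genes were called, and 4740 with the 89 h libraries alone and 4653 with a minimum difference of 1. The other alternatives gave counts within 1.5 times, and 7506 to 9230 when a library was left out. The lowest was without GEM 97 h replicate 1 and the highest without GEM 89 h replicate 3. No gene called in the deposited scaling was called in the other direction when a library was left out. After quantile normalization 4 were, after centring on library medians 3, and with a mean of at least 3 there were 2. The share of calls higher in FEM, 44.6%, was 27.5% of 11499 after quantile normalization, 21.6% of 12379 after median centring, and 54.9% with 89 h alone. Of 675 values of 27 named genes under alternatives, 673 kept direction and side of the threshold, and 2 did not pass it, both of *gon-2* (-0.47 with 89 h alone and -0.42 with a minimum difference of 1). Except for the strain alleles, these genes were picked for large differences in the same libraries. Their stability was thus largely set by the selection and does not describe the 8500 calls.

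The interaction of strain and hour called 1 gene, and 1 to 8 when a library was left out. The change from day 2 called 6111 genes, 5519 to 6572 when a library was left out and 6081 with only the libraries compared, and its share above 0 was 13.4%, but 46.6% after quantile normalization, 44.4% after median centring, and 2.95% after centring on muscle and neuron genes. Of these 6111 genes 36 were called in the other direction after quantile normalization. The change to days 4 and 5 called 2682 genes, 225 after quantile normalization, 12 with only the libraries compared, and 6 to 5018 when a library was left out. The causes were not tested. A read was worth up to 1.83 normalized counts, so levels near 1 rest on single reads.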
